A study of Mus musculus with 36 samples.

Results

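These results describe how the transcripts of mouse neural precursor cells (NPC) differed between a wild-type line and a line in which the histone methyltransferases MLL3 and MLL4 lack catalytic activity (dCD). All 6 libraries labelled NPC wild type or NPC MLL3/4 dCD in the second of the series' 2 count tables were taken, 3 of each genotype, out of 36 samples in the whole series. The 20511 genes that passed a filter on low counts are described by class and function. The cells were E14, a mouse embryonic stem cell (ESC) line, differentiated with retinoic acid (RA) and harvested on day 4. The labels give 2 µM dTAG-13 for the wild-type and the dCD libraries alike, added from day 1. This compound directs proteins carrying a dTAG degron to degradation, and neither of these genotypes is labelled as carrying that degron. For reference, values are also given from NPC of a line whose MLL2 carries the degron (MLL2dTAG), and from ESC of the wild-type and dCD lines, also labelled as given dTAG-13. Each genotype is a line of its own, so the edit and other differences between lines cannot be told apart. The labels do not say whether replicates came from separate cultures, so p-values measure only the spread between these samples, which may be technical.

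MLL3 and MLL4, encoded by Kmt2c and Kmt2d, are related enzymes that place monomethyl marks on lysine 4 of histone H3, chiefly at enhancers, the distal elements that raise the transcription of their target genes. They sit in large complexes with shared subunits and with the H3K27 demethylase UTX (Kdm6a), and they bring coactivators to enhancers as cell types change. MLL2, encoded by Kmt2b, places trimethyl marks on the same residue, mainly at promoters. Catalytic-dead alleles are made to remove the enzymatic activity while the protein is kept. The comparison shows which transcripts differed between the wild-type and dCD lines, and whether they depend on that activity was not tested.

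Total counts were between 30482705 and 36299673 in the 6 wild-type and dCD NPC libraries. Expression is given in CPM, a gene's counts relative to the library's TMM-scaled total, as mean ± SD of 3 libraries, and these values are not scaled by gene length, so levels are compared between libraries and not between genes. A count of 0 in a library allows up to 3 counts, which is 0.0798 to 0.0949 CPM. Replicates of a genotype had a Pearson correlation of 0.9916 to 0.9922 on log2 CPM across genes. Throughout, a gene rose or fell only if it was called at an adjusted p under 0.05 by edgeR's quasi-likelihood test with Benjamini-Hochberg adjustment over all 20511 genes, two-sided. A change is the log2 fold change of dCD against wild type ± its standard error (SE). These are bulk samples, so fewer cells of a type and less RNA per cell cannot be told apart.

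The stage label was checked against its markers. Pou5f1 and Nanog, core factors of pluripotency, averaged 555 and 487 CPM in wild-type ESC but 1.01 and 1.71 CPM in wild-type NPC, with 1.27 and 1.34 CPM in dCD NPC. The neural factor Pax6 averaged 38.9 CPM and the neural intermediate filament nestin, Nes, 91.2 CPM in wild-type NPC, while the early neural factor Sox1 averaged 3.1 CPM. ESC levels of these neural genes are not given here, so their values show presence only and not a rise from ESC. Markers of other lineages were present too. In wild-type NPC the mesoderm and kidney regulator Wt1 averaged 432 CPM and the endoderm and heart regulators Gata6 and Gata4 averaged 127 and 62.6 CPM. The libraries are called NPC as labelled, with regulators of non-neural tissues present in both genotypes.

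Kmt2c had 178, 178 and 171 CPM in the wild-type libraries and 161, 171 and 164 CPM in the dCD libraries. Kmt2d had 229.7, 250.1 and 244 CPM in the wild-type libraries and 268, 242 and 239 CPM in the dCD libraries. The groups overlapped for both genes, and neither passed the test (adjusted p = 0.187 and 0.579, with changes of -0.082 ± 0.052 and 0.051 ± 0.072). Kmt2b, for MLL2, went from 183 ± 8.58 to 172 ± 6.47 CPM (adjusted p = 0.095). The dCD label concerns catalytic activity, so a level of these transcripts does not check the genotype. Among the 7 methyltransferases of H3K4 that were measured, Kmt2e fell (307 to 244 CPM) and the other members did not pass the test. This count depended on the setting: 4 fell with GC and length offsets, 3 fell and 1 rose when only the groups compared were fitted, and 1 rose with no filter on low counts. Without dCD replicate 1, 2 fell, and without dCD replicate 3, 1 rose.

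In NPC, 10968 genes were called, which is 53.5% of those tested. They split evenly into 5478 that rose (26.7%) and 5490 that fell (26.8%). Counts of list members below are to be read beside these shares, and no list was tested as a set. Libraries of the genotypes did not overlap for 60.1% of all genes tested, so a lack of overlap for a gene named below is a description only. Most changes were small: the median size of a called change was 0.468 on the log2 scale. A change of at least 2-fold was reached by 2439 genes (11.9%), of which 1442 rose (7.03% of the genes tested) and 997 fell (4.86%). The share that rose by that much was highest among genes barely expressed in wild type, among 5 bins of wild-type level. Of 4293 genes under 0.5 CPM in wild-type NPC, 13.35% rose at least 2-fold and 4.449% fell. From 2 to 10 CPM the shares were 10.49% and 9.097%, and at 50 CPM or more they were 0.8982% and 1.291%. These bins use the wild-type level, which also enters the fold, so they describe where the called genes lay. Among protein-coding genes, 7.596% rose and 4.477% fell at least 2-fold, against 8.971% and 7.206% of long intergenic RNAs.

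**Figure D1:**
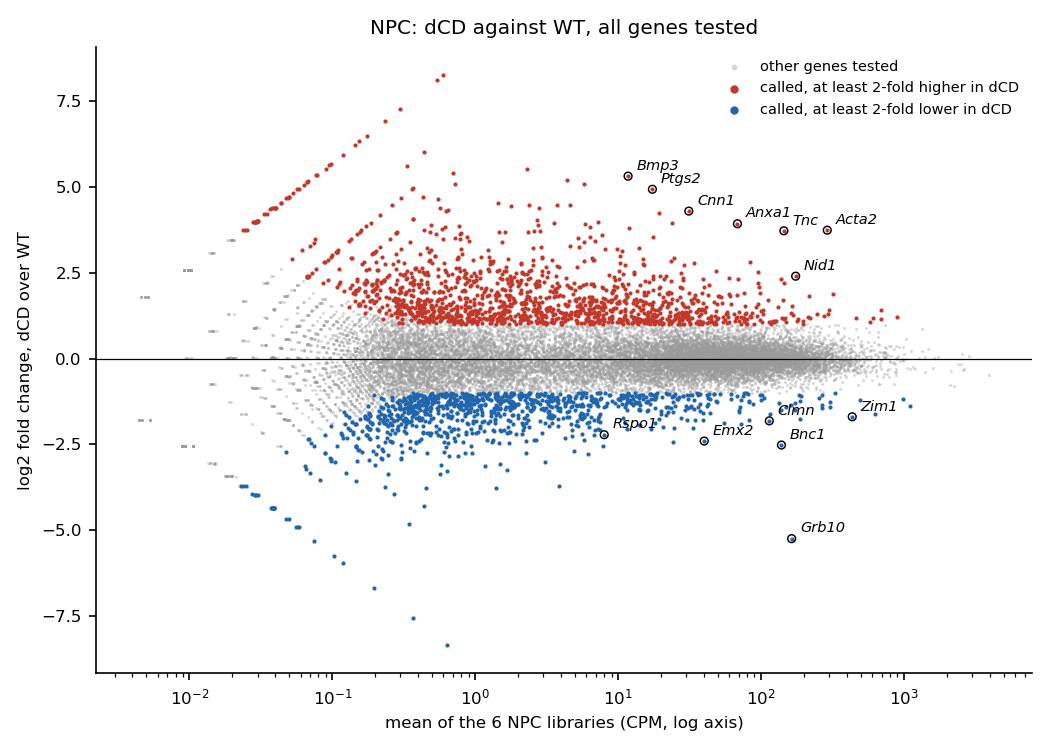
Change of each of the 20511 genes tested in NPC (log2 fold change of dCD against wild type, vertical axis) against its mean level over the 6 NPC libraries (CPM, log axis). Genes called and at least 2-fold higher are red, those called and at least 2-fold lower are blue, and all others are grey. Grb10 lies far below the other abundant genes, and for genes with 0 counts in a genotype the plotted value depends on the prior count of the fit.

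The genes that rose most included smooth-muscle cytoskeleton, secreted signals and matrix proteins, and a T-box factor of the heart. They are the 12 called genes with the highest change whose mean reached 5 CPM. Bmp3, a secreted member of the BMP family, had 0.443, 0.533 and 0.726 CPM in the wild-type libraries and 23.1, 24.2 and 21.4 CPM in the dCD libraries. Every dCD library was far above every wild-type library, and the change was 5.32 ± 0.18 (adjusted p = 7.29e-22). Ptgs2, the inducible cyclooxygenase of prostaglandin synthesis, had 1.39, 0.985 and 0.95 CPM in the wild-type libraries and 35, 34.2 and 31.7 CPM in the dCD libraries, a change of 4.93 ± 0.10 (adjusted p = 7.76e-30). Mgat4c, an enzyme of glycan branching, rose from 0.332 ± 0.153 to 11.2 ± 0.721 CPM (log2 change 5.09 ± 0.23).

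Proteins of the contractile cytoskeleton were in the same set. Cnn1, the smooth-muscle calponin that binds actin, had 2.82, 3.33 and 2.88 CPM in the wild-type libraries and 64.7, 59.1 and 54.7 CPM in the dCD libraries (log2 change 4.30 ± 0.086, adjusted p = 5.24e-30). Acta2, the smooth-muscle alpha actin, had 41, 40.6 and 39.8 CPM in the wild-type libraries and 559, 537 and 528 CPM in the dCD libraries (log2 change 3.74 ± 0.051, adjusted p = 4.11e-35). Actg2, the smooth-muscle gamma actin, rose from 0.86 ± 0.219 to 13.6 ± 1.39 CPM. Groups that do not overlap were a condition for the choice of the 12 genes. Actin genes share nearly identical coding sequence, so reads could be split among them by the authors' counting, and single actin values are uncertain for that reason.

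The other members rose from low levels. Tbx20, a T-box factor of heart development, had 0.886, 0.692 and 0.95 CPM in the wild-type libraries and 11.5, 12.3 and 12 CPM in the dCD libraries. Egfl6, a secreted protein with EGF repeats, rose from 2.95 ± 0.693 to 44.7 ± 1.88 CPM, and Nov, a matricellular protein of the CCN family, from 0.727 ± 0.0769 to 11.1 ± 1.03 CPM. The annexin Anxa1, a phospholipid-binding protein of membranes, rose from 8.42 ± 0.191 to 128 ± 1.38 CPM. The serpin Serpinb9b rose from 1.94 ± 0.181 to 37 ± 1.21 CPM. Cntnap5b, a neurexin-like adhesion protein, rose from 1.59 ± 0.074 to 22.4 ± 2 CPM.

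**Figure D2:**
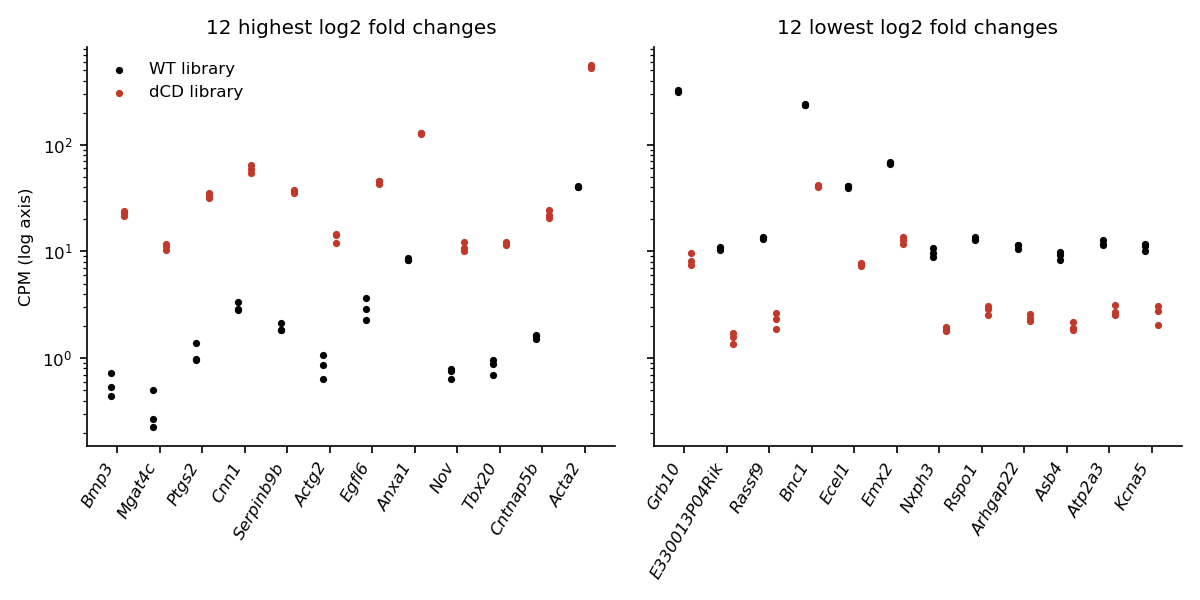
CPM of the 24 genes changed most (12 higher, 12 lower; log axis) in each of the 3 wild-type and 3 dCD NPC libraries, 1 point per library. The genes were chosen for large changes and for groups that do not overlap, so the gap between genotypes is a description only.

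The 12 genes that fell most were led by Grb10, an imprinted adaptor protein that binds the insulin and IGF receptors and restrains growth. It had 321, 324 and 313 CPM in the wild-type libraries and 9.57, 8.14 and 7.48 CPM in the dCD libraries. This was a change of -5.25 ± 0.059 (adjusted p = 1.7e-37), and the lowest change of any called gene above 5 CPM. In MLL2dTAG NPC, Grb10 averaged 229 ± 4.98 CPM. Bnc1, the zinc finger factor basonuclin of epithelia and germ cells, had 234, 241 and 235 CPM in the wild-type libraries and 42, 41.4 and 40.2 CPM in the dCD libraries (log2 change -2.52 ± 0.047, adjusted p = 8.15e-31). Emx2, a homeobox factor of the cortex and the urogenital tract, had 69.3, 66.9 and 65.9 CPM in the wild-type libraries and 12.7, 13.7 and 11.6 CPM in the dCD libraries (log2 change -2.41 ± 0.091). The 12 lower genes were chosen by the same rule, non-overlap included.

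Signalling and membrane proteins made up most of the rest. Rspo1, a secreted amplifier of WNT signalling, fell from 13.2 ± 0.35 to 2.83 ± 0.281 CPM. Nxph3, a ligand of neurexins, fell from 9.72 ± 0.986 to 1.86 ± 0.0698 CPM, and Ecel1, an endothelin-converting enzyme-like peptidase of neurons, from 40.5 ± 1.06 to 7.56 ± 0.246 CPM. The voltage-gated potassium channel Kcna5 fell from 11 ± 0.924 to 2.64 ± 0.544 CPM and the calcium pump Atp2a3 from 12 ± 0.766 to 2.81 ± 0.305 CPM. Asb4, an imprinted ubiquitin ligase subunit, fell from 9.16 ± 0.848 to 1.98 ± 0.171 CPM. Rassf9, with a Ras-association domain, fell from 13.4 ± 0.245 to 2.28 ± 0.39 CPM and Arhgap22, a GTPase-activating protein, from 11.2 ± 0.603 to 2.4 ± 0.191 CPM. The unnamed transcript E330013P04Rik fell from 10.7 ± 0.268 to 1.55 ± 0.183 CPM.

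Among abundant genes, those averaging 100 CPM and above, matrix proteins and actin regulators rose most. Acta2 led, followed by Tnc, the matrix protein tenascin C, with 20.5, 19.3 and 21.3 CPM in the wild-type libraries and 279, 265 and 262 CPM in the dCD libraries (log2 change 3.72 ± 0.063). Nid1, which links laminin and collagen in basement membranes, rose from 55.7 ± 1.4 to 294 ± 2.97 CPM, and Thbs1, a matricellular thrombospondin, from 46.5 ± 2.05 to 230.0 ± 7.13 CPM. Calponin 2, Cnn2, rose from 51.8 ± 2.96 to 236 ± 14.9 CPM (log2 change 2.19 ± 0.051). Grb10 and Bnc1 fell most here too. Next came Clmn, a calponin-domain membrane protein, from 178 ± 1.01 to 50.5 ± 2.2 CPM, the kinase Stk26 from 288 ± 3.96 to 85.4 ± 3.21 CPM and the imprinted zinc finger gene Zim1 from 664 ± 2.7 to 205 ± 7.44 CPM.

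Promoters are shown for Grb10 and for 2 genes of contractile proteins that rose, the latter chosen because they hold the motif described here. The sequences are the 250 bases before the start in RefSeq's annotation of GRCm38.p6, written on the gene's strand. Smooth-muscle and cardiac genes are known to be driven by serum response factor, which binds a sequence of 10 bases called the CArG box. Of 32851 promoter windows in the RefSeq table, 482 (1.47%) held a match to it, which is the same read on either strand. A match means the exact form CCWWWWWWGG, with W for A or T, and boxes that differ from it by any base were not counted. A match is only a description of the letters. On the heart and muscle list described next, 2 of the 8 genes that rose and had a window in this table held a match (Actc1 and Acta1), as did 1 of 5 that fell (Myl7) and 0 of 5 that were not called. The windows of Cnn1 and Acta2 held no exact match, which does not show that they lack imperfect boxes or boxes outside the window. Actc1, the cardiac actin, at chr2:114052876-114053125 on the minus strand, and Cnn2, at chr10:79988350-79988599 on the plus strand, each held 1 match, shown in capitals, 37 and 46 bases before the start. Grb10 has 2 starts in this table, at chr11:12037421-12037670 with 40 CpG dinucleotides and at chr11:12027972-12028221 with 8, both on the minus strand and neither with a match. The counts are per gene and do not separate the starts.
Actc1 promoter: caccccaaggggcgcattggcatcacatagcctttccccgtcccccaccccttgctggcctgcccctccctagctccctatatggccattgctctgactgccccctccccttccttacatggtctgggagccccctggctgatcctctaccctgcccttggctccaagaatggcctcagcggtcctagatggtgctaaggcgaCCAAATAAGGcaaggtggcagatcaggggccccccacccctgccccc
Cnn2 promoter: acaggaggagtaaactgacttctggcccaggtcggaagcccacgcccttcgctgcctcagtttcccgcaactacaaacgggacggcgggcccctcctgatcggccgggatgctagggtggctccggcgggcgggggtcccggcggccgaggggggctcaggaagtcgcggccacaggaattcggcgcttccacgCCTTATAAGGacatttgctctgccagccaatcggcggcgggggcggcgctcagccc
Grb10 upstream promoter: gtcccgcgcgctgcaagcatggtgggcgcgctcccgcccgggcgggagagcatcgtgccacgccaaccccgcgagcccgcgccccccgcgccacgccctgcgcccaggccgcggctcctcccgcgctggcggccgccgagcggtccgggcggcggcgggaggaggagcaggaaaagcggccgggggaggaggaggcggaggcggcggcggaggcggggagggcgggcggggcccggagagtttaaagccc
Grb10 downstream promoter: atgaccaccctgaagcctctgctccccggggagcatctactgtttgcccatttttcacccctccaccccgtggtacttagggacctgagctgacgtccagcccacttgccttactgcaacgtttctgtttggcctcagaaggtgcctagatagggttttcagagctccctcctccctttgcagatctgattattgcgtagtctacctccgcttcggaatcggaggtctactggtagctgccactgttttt

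Genes of the heart and muscle list moved in both directions. Of 24 genes tested on the heart and muscle list, 11 rose and 7 fell, with a median of 0.35 against -0.017 over all genes tested. Beside Cnn1 and Acta2, Tagln, the smooth-muscle protein transgelin, had 3.39, 2.45 and 2.49 CPM in the wild-type libraries and 33.9, 32.1 and 30.4 CPM in the dCD libraries. Myh11, the smooth-muscle myosin heavy chain, had 3.1, 2.5 and 2.51 CPM in the wild-type libraries and 25.1, 25.5 and 25 CPM in the dCD libraries. For both, the lowest dCD library was well above the highest wild-type library, and groups did not overlap for 60.1% of all genes tested. Actc1 had 0.253, 0.293 and 0.363 CPM in the wild-type libraries and 5.46, 5.02 and 4.81 CPM in the dCD libraries, and the skeletal actin Acta1 rose from 0.678 ± 0.28 to 5.18 ± 0.43 CPM. The counting limit given above for actins holds for both. In the other direction, Tbx5, a T-box factor of heart and forelimb, fell from 7.68 ± 0.321 to 1.79 ± 0.156 CPM, and Tnni1, the slow skeletal troponin I, from 7.38 ± 0.763 to 1.95 ± 0.192 CPM. The cardiac factors Gata4 and Gata5 fell from 62.6 to 36.1 CPM and from 14.9 to 7.79 CPM, while Gata6 was at 127 and 131 CPM and did not pass the test. Summed over the list, wild-type libraries had 316.8 to 327.6 CPM and dCD libraries 899.4 to 956.9 CPM, most of the difference being Acta2. Without Acta2 the sums were 277.0 to 286.6 CPM and 371.8 to 398.0 CPM. The skeletal muscle factors Myod1, Myog and Myf5 were too low to be tested.

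Genes of the fibroblast matrix shifted upwards. Of 25 tested, 18 rose and 3 fell, a median of 0.61. Col14a1 and Col12a1, collagens that sit on the surface of fibrils, rose from 13.9 ± 1.24 to 82.2 ± 4.37 CPM and from 135 ± 2.13 to 499 ± 13.7 CPM. Fibronectin, Fn1, rose from 375 ± 4.25 to 779 ± 24.4 CPM. Lox, which cross-links collagen, rose from 3.87 ± 0.749 to 17.4 ± 1.49 CPM, and the fibrillar collagen Col5a2 from 33.7 ± 1.07 to 156 ± 6.67 CPM. Against this, Col6a1 and Col6a2, chains of the collagen VI microfibril, fell from 71.9 ± 1.16 to 43.2 ± 2.42 CPM and from 42.9 ± 1.16 to 28.3 ± 1.43 CPM. The summed level of the list was 2759 to 2800 CPM in wild type and 4794 to 5010 CPM in dCD. Of 24 genes on the mesenchyme list, 9 rose (37.5%) and 8 fell (33.33%), against 26.7% and 26.8% of all genes tested. Tbx15 and Zeb2 rose (3.36 to 16.9 CPM and 39.2 to 101 CPM), while Meox1 and Osr1 fell (9.6 to 2.59 CPM and 15.7 to 7.78 CPM). Wt1 fell as well, from 432 ± 7.67 to 179 ± 8.06 CPM. The basement membrane list was balanced as well, with 7 of 20 higher and 7 lower (35% each).

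Cadherins, the calcium-dependent adhesion proteins that sort cells into tissues, rose more often than they fell (16 and 5 of 25, median 0.94). Pcdh17 and Pcdh7, protocadherins of neurons, rose from 9.46 ± 0.733 to 47.8 ± 3.66 CPM and from 37 ± 0.678 to 156 ± 5.7 CPM. N-cadherin, Cdh2, the cadherin of neural and mesenchymal cells, had 176, 167 and 171 CPM in the wild-type libraries and 329.6, 337 and 322 CPM in the dCD libraries. The groups were well apart for it. E-cadherin, Cdh1, and P-cadherin, Cdh3, both of epithelia, fell from 79.1 ± 5.04 to 70.04 ± 3.54 CPM and from 63 ± 1.73 to 41.2 ± 1.28 CPM. Of 52 clustered protocadherins tested, 27 rose and 1 fell (median 0.46). No member fell without wild-type replicate 2 or 3 or dCD replicate 2 or 3. The 51.92% that rose stands beside 43.1% of all genes tested on chromosome 18, where these clusters lie and of which they are part. Members of a cluster share exons, so reads between them may be split by the counting.

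Epithelial genes fell more often than they rose: 15 fell and 5 rose of 26 (median -0.35). The adhesion protein Epcam fell from 63 ± 0.788 to 30.5 ± 0.777 CPM, the tight-junction proteins Cldn3 and Cgn from 4.92 ± 0.489 to 1.63 ± 0.38 CPM and from 35.6 ± 0.921 to 15.9 ± 0.315 CPM, and the splicing regulator Esrp1 from 21.4 ± 1.04 to 9.87 ± 1.02 CPM. The keratins Krt7 and Krt19 of simple epithelia fell from 53.1 ± 1.49 to 21.3 ± 0.604 CPM and from 135 ± 6.57 to 81.4 ± 4.13 CPM. Grhl3 and Tfap2a, transcription factors of surface ectoderm, rose from 2.93 ± 0.512 to 6.99 ± 0.351 CPM and from 3.47 ± 0.149 to 6.44 ± 1.09 CPM. Endoderm markers moved in the same direction for the most part, with 11 lower and 4 higher of 22 (median -0.60). Hnf4a, a factor of liver and visceral endoderm, fell from 3.51 ± 0.141 to 1.5 ± 0.227 CPM and the endocytic adaptor Dab2 from 204 ± 4.15 to 113 ± 4.93 CPM, whereas Foxa1 rose from 11.5 ± 1.09 to 33.5 ± 0.451 CPM. The summed level of the endoderm list was 1538 to 1575 CPM in wild type and 1803 to 1828 CPM in dCD, most of it Sparc, which is also on the matrix list and rose from 832 to 1233 CPM. Blood and endothelial markers summed to 144.6 to 147.7 CPM and 115.4 to 118.5 CPM, with Ptprc, Hba-x and Hba-a1 at 0 in every NPC library. The part of these other cell types in the changes of neural genes was not tested.

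**Figure D3:**
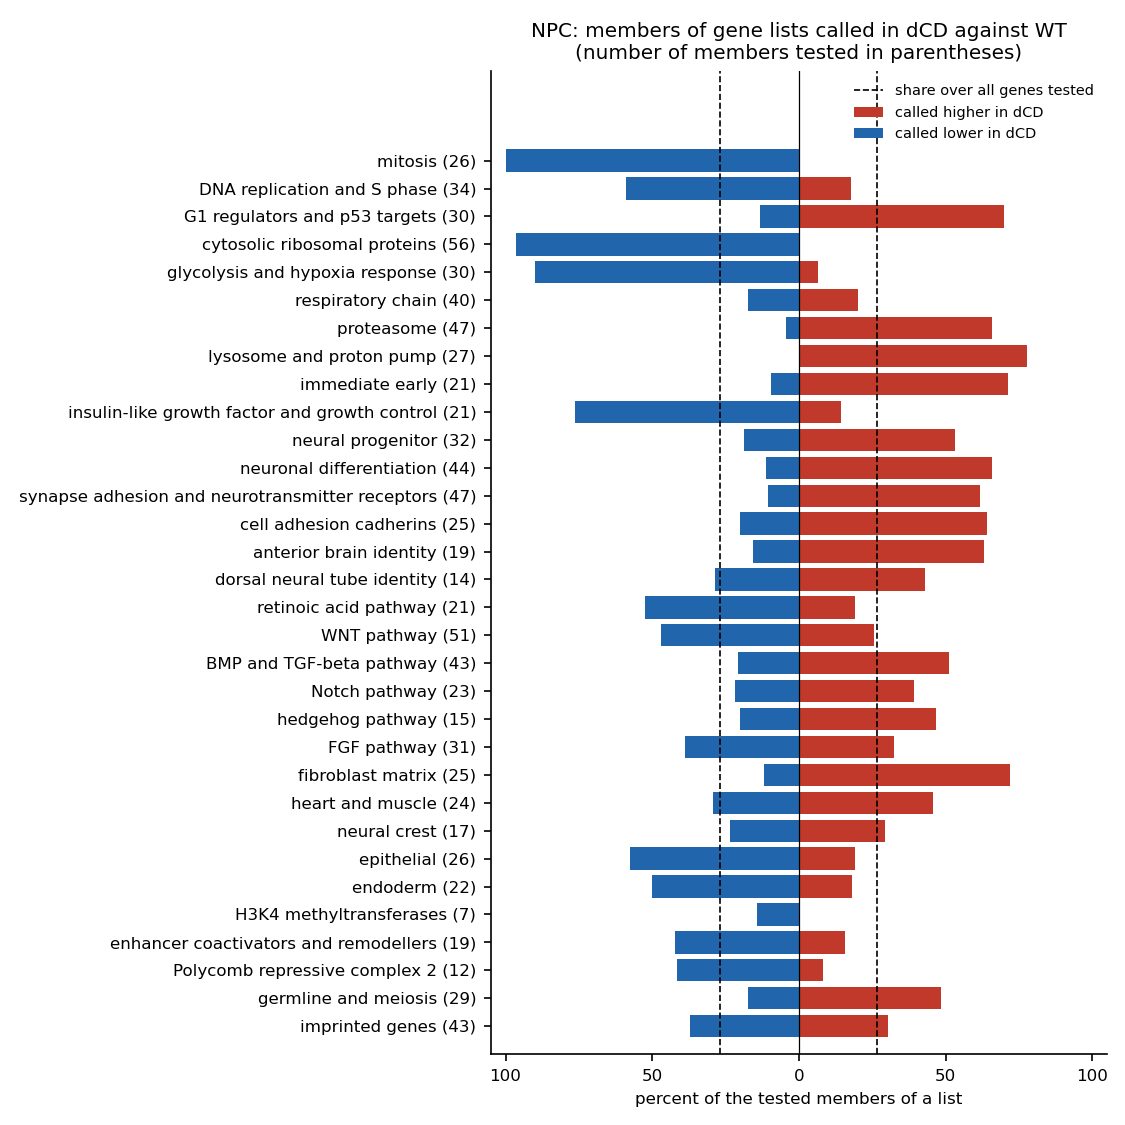
Share of each lineage, signalling, process and chromatin list called higher (right of 0) and called lower (left of 0) in dCD NPC, in percent of the list's genes tested. Dashed lines mark the shares over all genes, 26.7% higher and 26.8% lower, and the neuronal, synaptic and matrix lists lie above the first while the epithelial, endoderm and RA lists lie above the second.

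Genes of neural progenitors and neurons rose more often than they fell. Of 32 genes on the progenitor list, 17 rose and 6 fell (median 0.37). Nes had 90.6, 92.4 and 90.5 CPM in the wild-type libraries and 239, 241 and 213 CPM in the dCD libraries (log2 change 1.34 ± 0.047). Sox2, a factor of neural stem cells, had 14.5, 14 and 14.7 CPM in the wild-type libraries and 31.2, 27.9 and 25.9 CPM in the dCD libraries, and Sox1 had 3.26, 2.82 and 3.21 CPM in the wild-type libraries and 7.24, 7.92 and 6.83 CPM in the dCD libraries. In all 3, every dCD library was above every wild-type library, and groups did not overlap for 60.1% of all genes tested. Pax3 and Zic1, factors of the dorsal neural tube, rose from 6.05 ± 0.692 to 19.7 ± 1.12 CPM and from 12.2 ± 0.553 to 39.7 ± 2.54 CPM. Pax6 rose from 38.9 ± 1.16 to 52.8 ± 2.41 CPM. Nr2f2 and the glutamate transporter Slc1a3 fell from 315 ± 6.23 to 204 ± 2.58 CPM and from 309.8 ± 4.91 to 173 ± 6.17 CPM. The Notch effector Hes5 was at 0.451 and 0.521 CPM and did not pass the test.

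On the list of neuronal differentiation, 29 of 44 rose and 5 fell (median 0.55). Stmn2, a regulator of microtubules in growing axons, had 25.7, 25.7 and 25.6 CPM in the wild-type libraries and 91.9, 99.6 and 90.2 CPM in the dCD libraries (log2 change 1.87 ± 0.058). Tubb3, the neuronal beta tubulin, rose from 42.5 ± 2.12 to 82.4 ± 3.96 CPM, and Gap43, a growth cone protein, from 7.9 ± 0.139 to 21.1 ± 0.581 CPM. Ebf2, a helix-loop-helix factor of early neurons, rose from 2.04 ± 0.084 to 8.76 ± 0.413 CPM. Not all neuronal genes followed. The neurofilaments Nefl and Nefm fell from 22.3 ± 1.03 to 14.2 ± 0.745 CPM and from 40.8 ± 2.3 to 28.1 ± 1.08 CPM. Doublecortin, Dcx, a marker of migrating neurons, was at 81.4 and 77.3 CPM, and the proneural factor Neurog2 was at 4.31 and 3.18 CPM. Neither passed the test.

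Synaptic adhesion proteins and transmitter receptors had a median of 0.80, with 29 of 47 higher and 5 lower. Gria4, a subunit of AMPA glutamate receptors, had 5.89, 7.16 and 7.46 CPM in the wild-type libraries and 36.3, 36.1 and 36.4 CPM in the dCD libraries. Slitrk1 and Slitrk5, synaptic adhesion proteins, rose from 1.98 ± 0.878 to 17.7 ± 1.06 CPM and from 5.36 ± 0.469 to 25.6 ± 1.77 CPM. Subunits of the GABA type A receptor moved both ways. Gabra2 rose from 0.428 ± 0.0178 to 6.67 ± 1.17 CPM, while Gabra4 and Gabrb1 fell from 50.1 ± 0.691 to 18 ± 0.829 CPM and from 8.25 ± 0.402 to 2.71 ± 0.521 CPM. Astroglial and oligodendrocyte markers mostly fell where called, with 7 of 18 lower and 1 higher. The gene that rose, Nfib, lost its call under 5 of the alternatives tried (adjusted p between 0.0746 and 0.147), and no gene of the list rose without wild-type replicate 2 or 3, while 2 rose without dCD replicate 1. Aquaporin 4, Aqp4, and S100b were too low to be tested.

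Regional identity was examined along the axes of the neural tube. On the anterior list, 12 of 19 genes rose and 3 fell (median 1.35), most of them from under 1 CPM. With only genes of a mean of at least 1 CPM tested, 7 rose. The summed level of the list was lower in dCD, at 67.53 to 70.89 CPM against 96.92 to 98.97 CPM in wild type, and without Emx2 it was 55.52 to 58.16 CPM against 28.01 to 32.11 CPM. Dlx2, a factor of ventral forebrain neurons, had 0.38, 0.426 and 0.391 CPM in the wild-type libraries and 5.92, 5.19 and 4.81 CPM in the dCD libraries (log2 change 3.72 ± 0.25). No wild-type library came near a dCD library for it. The midbrain and hindbrain factors Pax2 and En2 rose from 5.93 ± 0.425 to 12.3 ± 0.405 CPM and from 1.49 ± 0.0905 to 3.83 ± 0.392 CPM. Six3, of the eye and forebrain, had 0 counts over the 3 wild-type libraries and 24 over the 3 dCD libraries. In contrast, Emx2 fell as given above and Pax5 fell from 5.95 ± 0.326 to 4.31 ± 0.315 CPM, a call lost without wild-type replicate 2 or 3 or dCD replicate 2 (adjusted p between 0.0532 and 0.0752). Otx2, of the forebrain and midbrain, remained very low at 0.0811 and 0.23 CPM, although it was called higher, a call lost with halved counts and without wild-type replicate 2 or 3 or dCD replicate 2 (adjusted p between 0.0627 and 0.15).

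Dorsal genes split: Msx3 and Pax3 rose (5.82 to 29.1 CPM for Msx3), and the dorsal signal Wnt1 rose from 7.46 ± 1.67 to 15.6 ± 1.7 CPM, while the roof plate factor Lmx1a fell from 9.74 ± 0.269 to 4.25 ± 0.442 CPM and the WNT amplifiers Rspo1 and Rspo3 also fell (22.6 to 11 CPM for Rspo3). In all, 6 of 14 rose and 4 fell. Of 12 ventral genes, 2 rose and 2 fell (none fell without wild-type replicate 2 or dCD replicate 2), and the floor plate signal Shh was at 7.48 and 7.52 CPM and did not pass the test.

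Hox genes encode the factors that set position along the trunk, in 4 clusters ordered from anterior to posterior. They rose in most cases, by small amounts in the anterior and middle part of the clusters and by larger amounts at the posterior end. In the Hoxa cluster 6 of 11 tested rose and 1 fell. For Hoxb the counts were 9 and 1 of 10, for Hoxc 6 and 3 of 9, while for Hoxd 7 of 9 rose and the others were not called. Without wild-type replicate 1, wild-type replicate 2, dCD replicate 2 or dCD replicate 3, the Hoxd count was 4 in place of 7, and without dCD replicate 3, 2 Hoxa genes fell.

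Hoxc13 had 0.791, 0.479 and 0.391 CPM in the wild-type libraries and 5.34, 5.35 and 5.05 CPM in the dCD libraries, and Hoxc10 had 4.62, 4.63 and 5.95 CPM in the wild-type libraries and 19.11, 19 and 19.7 CPM in the dCD libraries. Hoxb13 rose from 16.8 ± 0.558 to 43.1 ± 1.83 CPM and Hoxb9 from 99 ± 2.96 to 192 ± 3.18 CPM. The groups did not overlap for these, which also held for 60.1% of all genes tested. Others were close to silent in wild type: over the 3 libraries of each genotype, Hoxc12 had 0 and 49 counts, Hoxc11 6 and 127, Hoxa11 4 and 146 and Hoxd10 4 and 109. At the anterior end, Hoxb1, a direct target of RA in the hindbrain, fell from 6.32 ± 0.572 to 3.19 ± 0.184 CPM. Hoxc5 fell from 217 ± 1.11 to 82 ± 1.94 CPM and Hoxc4 from 127 ± 4.99 to 90.3 ± 1.8 CPM. Hoxc genes at opposite ends of 1 cluster thus moved in opposite directions. Overlapping and antisense transcripts are common in these clusters, and use of the strand in counting is not given in the sources used here.

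**Figure D4:**
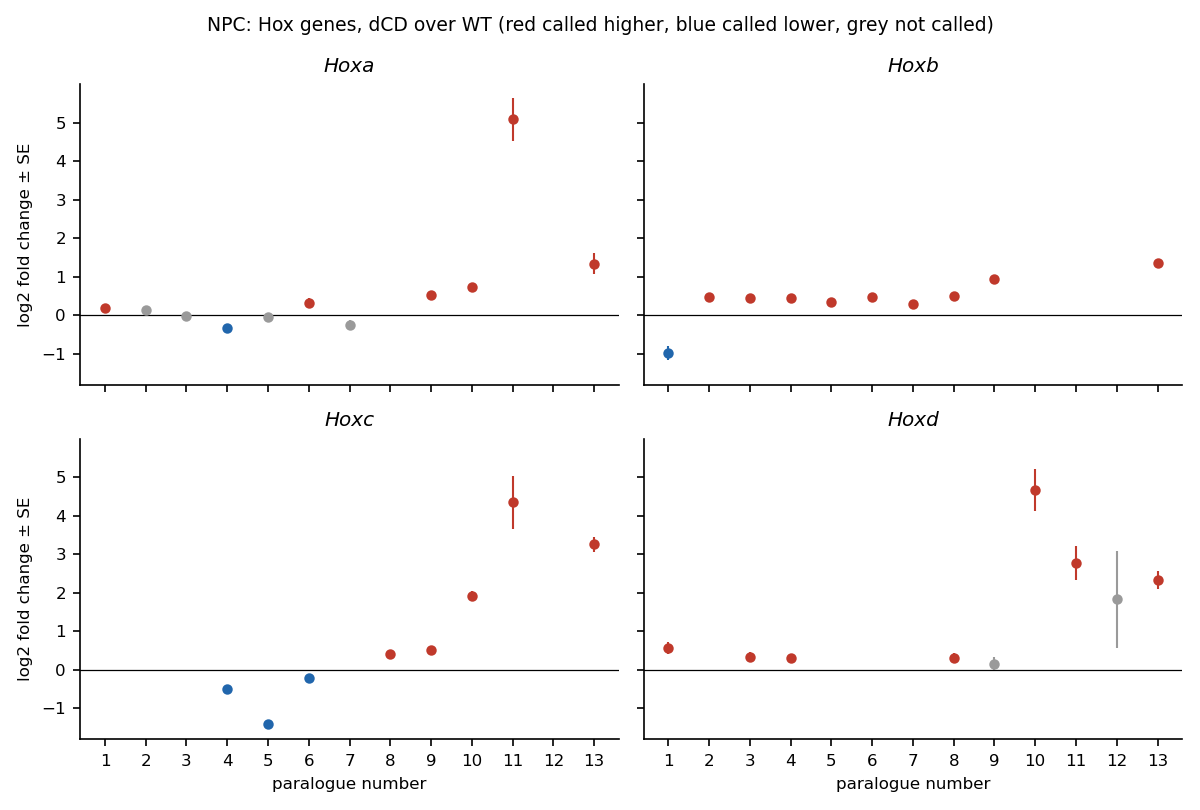
Log2 fold change of dCD against wild type in NPC for the Hox genes tested in each of the 4 clusters, in order of paralogue number (horizontal axis), with bars for ± SE. Genes called higher are red, called lower blue and not called grey. The posterior Hoxc genes lie well above 0 and Hoxc4 and Hoxc5 below it, and Hoxc12, with 0 counts in wild type, is not plotted.

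Genes of RA handling fell more often than they rose, in cells that were given RA in both genotypes. Of 21 tested, 11 fell and 4 rose (median -0.30). Among the enzymes that make RA, Aldh1a2 had 127, 123 and 126 CPM in the wild-type libraries and 47.8, 52 and 50.7 CPM in the dCD libraries (log2 change -1.32 ± 0.051), and Aldh1a1 fell from 8.84 ± 0.579 to 2.69 ± 0.993 CPM. The retinol importer Stra6 fell from 179 ± 7.86 to 100.3 ± 3.14 CPM and the carrier Crabp2 from 83.1 ± 1.15 to 54.4 ± 1.6 CPM. Among the enzymes that clear RA, Cyp26a1 fell from 135 ± 3.92 to 101 ± 3.16 CPM and Cyp26b1 from 446 ± 8.74 to 363 ± 6.79 CPM. The receptors Rara, Rarb and Rarg rose (70.9 to 94.1 CPM, 226 to 253 CPM and 38.2 to 60.5 CPM), while their partners Rxra and Rxrb fell (74.6 to 61.1 CPM and 91.3 to 67.1 CPM).

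WNT genes fell in 24 and rose in 13 of 51 cases (median -0.26). Among ligands, Wnt4 fell from 248 ± 4.78 to 118 ± 0.911 CPM and Wnt11 from 27.2 ± 2.37 to 16.2 ± 0.941 CPM, while Wnt5a rose from 33.6 ± 0.963 to 56.2 ± 3.48 CPM and Wnt3 from 2.69 ± 0.257 to 8.05 ± 0.116 CPM. Receptors also went both ways, with Fzd4 falling from 248 ± 4.66 to 100.1 ± 2.45 CPM and Fzd10 and Fzd1 rising from 13.8 ± 0.406 to 42.6 ± 1.79 CPM and from 19.7 ± 0.0847 to 52.9 ± 1.5 CPM. Of the secreted inhibitors, Sfrp1 had 688, 693 and 689.9 CPM in the wild-type libraries and 294, 303 and 297 CPM in the dCD libraries, and Notum fell from 29.9 ± 1.17 to 9.73 ± 0.235 CPM, but Dkk2 had 5.79, 5.67 and 5.59 CPM in the wild-type libraries and 45.6, 44.6 and 40.8 CPM in the dCD libraries. The groups were apart for each, which also held for 60.1% of all genes tested. Some known feedback targets of the canonical pathway, named after their values were seen, fell: Axin2 from 89.8 ± 1.97 to 65.5 ± 0.513 CPM, Nkd1 from 70.2 ± 2.43 to 44.8 ± 1.72 CPM, Rnf43 from 24.4 ± 0.275 to 13.6 ± 0.287 CPM and Sp5 from 6.53 ± 0.294 to 3.32 ± 0.4 CPM. Lef1 and Lgr5, also known targets, were at 16.6 and 14.7 CPM and at 12.8 and 10.7 CPM and did not pass the test.

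BMP and TGF-beta genes rose in 22 and fell in 9 of 43 cases (median 0.35). Several ligands of the TGF-beta and activin branch rose: Tgfb2 had 40.7, 39.6 and 38.6 CPM in the wild-type libraries and 115, 119.8 and 109 CPM in the dCD libraries, Tgfb1 rose from 2.5 ± 0.373 to 11 ± 1.49 CPM, and Inhba, a subunit of activin, from 9.34 ± 1.01 to 32 ± 2.56 CPM. Tgfb3 fell from 123 ± 3.75 to 63.8 ± 1.85 CPM, so the ligands were not uniform. The extracellular BMP antagonists Grem1, Nog and Chrd, named after their values were seen, rose, with Grem1 going from 1 ± 0.442 to 9.62 ± 0.56 CPM, Nog from 1.93 ± 0.27 to 4.92 ± 0.56 CPM and Chrd from 5.75 ± 0.116 to 10.3 ± 0.995 CPM. Of the receptors, Tgfbr2 rose from 23.9 ± 0.532 to 49.1 ± 2.32 CPM, while Bmpr1b and Acvr2b fell from 46.6 ± 1.96 to 17.9 ± 1.26 CPM and from 58.1 ± 3.25 to 28.5 ± 2.71 CPM. The BMP targets of the Id family were mixed, with Id1 falling (70.5 to 52.9 CPM) and Id3 rising (195 to 227 CPM). The connective tissue gene Ctgf, known to respond to TGF-beta and to mechanical signals, rose from 8.19 ± 0.182 to 30.5 ± 1.54 CPM.

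Growth factor genes of the IGF axis mostly fell, with 16 of 21 lower and 3 higher (median -0.36). The ligand Igf2 had 2897, 2910.2 and 2903 CPM in the wild-type libraries and 2415, 2263 and 2304 CPM in the dCD libraries. Its dCD libraries were all lower, by a change of -0.32 ± 0.037. The receptors Igf1r and Insr fell from 218 ± 0.358 to 147 ± 3.18 CPM and from 122 ± 3.69 to 74.6 ± 4.75 CPM. The binding protein Igfbp5 fell from 1588 ± 12.6 to 610.5 ± 17.3 CPM and Igfbp3 from 732 ± 10.04 to 471 ± 7.51 CPM, whereas Igfbp7 rose from 8.03 ± 0.749 to 21.9 ± 0.436 CPM. Igf2r, the receptor that removes IGF2, rose from 378 ± 8.69 to 579 ± 5.16 CPM. The fetal growth regulators Lin28a, Lin28b and Hmga2 fell (34.8 to 18.3 CPM, 55.9 to 28.8 CPM and 672 to 528 CPM).

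The other pathways were mixed. Notch genes rose in 9 (39.13%) and fell in 5 (21.74%) of 23 cases, against 26.7% and 26.8% of all genes tested. The ligand Jag1 rose from 10.9 ± 0.379 to 22.8 ± 0.996 CPM and the effector Hey2 from 3.35 ± 0.306 to 8.4 ± 0.247 CPM, while the effector Hey1 fell from 28.4 ± 1.67 to 15.4 ± 0.396 CPM. Hedgehog genes rose in 7 (46.67%) and fell in 3 (20%) of 15. The pathway targets Hhip and Gli1 rose from 26.3 ± 1.63 to 59.2 ± 2.19 CPM and from 51.5 ± 1.92 to 65.6 ± 1.41 CPM, while Ptch1 was at 218 and 214 CPM and did not pass the test. FGF genes rose in 10 (32.26%) and fell in 12 (38.71%) of 31, with Fgf13 rising from 5.62 ± 0.372 to 17.2 ± 0.987 CPM and the effector Etv1 falling from 57.4 ± 2.62 to 29.8 ± 1.44 CPM. Axon guidance genes moved both ways: 29 of 53 rose and 21 fell. The semaphorin Sema3e rose from 17.2 ± 1.16 to 55.3 ± 1.35 CPM and Sema3f fell from 43.1 ± 1.98 to 16.6 ± 0.238 CPM. The chemokine Cxcl12, which guides migrating cells, rose from 9.89 ± 0.195 to 36.8 ± 3.19 CPM and its receptor Cxcr4 fell from 25.4 ± 1.5 to 15.3 ± 1.21 CPM.

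Mitotic transcripts were lower in dCD, and many regulators of G1 and targets of p53 were higher. All 26 mitosis genes tested fell, against 26.8% of all genes, with a median of -0.51. Cenpf, of the kinetochore, had 473, 448 and 458 CPM in the wild-type libraries and 238, 265 and 248 CPM in the dCD libraries (log2 change -0.88 ± 0.044). Cenpa, the centromeric histone variant, fell from 169.9 ± 0.99 to 94.8 ± 3.42 CPM, and Mki67, the proliferation antigen Ki-67, from 932 ± 19 to 642 ± 28.2 CPM. Every dCD library was below every wild-type library for these 3, where groups did not overlap for 60.1% of all genes tested. Of the genes of DNA replication, 20 of 34 fell and 6 rose (median -0.15). The licensing factor Cdt1 fell from 101 ± 5.9 to 50.1 ± 4.2 CPM and the polymerase subunit Pold1 from 74.4 ± 5.45 to 48.3 ± 4.63 CPM. Pcna was at 134 and 130.5 CPM and did not pass the test. The cyclins E, Ccne1 and Ccne2, which drive entry into S phase, rose from 46.9 ± 1.59 to 87.5 ± 1.52 CPM and from 22.9 ± 0.703 to 46.9 ± 1.11 CPM.

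Of 30 regulators of G1 and targets of p53, 21 rose and 4 fell (median 0.56). Cdkn1a, the inhibitor p21, had 93.2, 90.3 and 88 CPM in the wild-type libraries and 214, 199 and 201 CPM in the dCD libraries (log2 change 1.18 ± 0.040). Cdkn2b, an inhibitor of CDK4 and CDK6, had 8.04, 7.11 and 7.65 CPM in the wild-type libraries and 51, 49.6 and 48.7 CPM in the dCD libraries, and its neighbour Cdkn2a rose from 16.6 ± 2.37 to 54.1 ± 7.76 CPM. Neither showed overlap between genotypes, which also held for 60.1% of all genes tested. The p53 targets Mdm2, Ccng1 and Fas rose (134 to 265 CPM, 420.0 to 713 CPM and 2.6 to 8.9 CPM), and Trp53 itself was at 129 and 126 CPM and did not pass the test. Sesn1, also a p53 target, fell from 82.6 ± 2.99 to 48.3 ± 3.07 CPM, and the inhibitor Cdkn1b fell from 137 ± 3.21 to 98.1 ± 3.07 CPM. The D cyclins Ccnd1 and Ccnd2 rose (61.3 to 103 CPM and 270.5 to 497 CPM). Immediate early genes rose in 15 of 21 cases and fell in 2, among them Egr1 (126 to 269 CPM), Junb (10.3 to 30.6 CPM) and Myc (9.48 to 22.8 CPM), while Mycn fell from 101 ± 2.01 to 43.7 ± 3.35 CPM.

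Genes of protein synthesis and of sugar metabolism mostly fell. Of 56 cytosolic ribosomal protein genes, 54 fell and the others were not called, with a median of -0.32. Over all 79 genes named as such that were tested, 70 fell and 4 rose, 2 of them at least 2-fold, and Rpl10l and Rpl39l, gene copies known from the testis, were highest. Mitochondrial ribosomal protein genes moved both ways, with 23 higher (29.87%) and 22 lower (28.57%) of 77 (median -0.004). These shares are near the 26.7% and 26.8% of all genes tested. Of 30 genes of glycolysis and the hypoxia response, 27 fell and 2 rose (median -0.46). The glucose transporters Slc2a1 and Slc2a3 fell, as Slc2a1 had 359, 374 and 351 CPM in the wild-type libraries and 177, 165 and 179 CPM in the dCD libraries and Slc2a3 went from 349.6 ± 10.2 to 158 ± 4.96 CPM. The glycolytic enzyme Aldoc fell from 53.2 ± 1.63 to 13.1 ± 0.914 CPM, Ldha, which makes lactate, from 878 ± 11.4 to 639.6 ± 7.29 CPM, and Vegfa, the hypoxia-induced growth factor of vessels, from 253 ± 2.91 to 183 ± 1.62 CPM. Of 40 genes of the respiratory chain, 8 rose (20%) and 7 fell (17.5%), with a median of 0.012. Without wild-type replicate 3, 4 fell, and without dCD replicate 3, 3 fell.

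Genes of protein breakdown and folding mostly rose. Of 27 lysosomal genes 21 rose and the others were not called (median 0.44). Ctsd, the lysosomal protease cathepsin D, had 144, 144 and 141 CPM in the wild-type libraries and 362, 333 and 354 CPM in the dCD libraries (log2 change 1.29 ± 0.035), and Lamp1, a protein of the lysosomal membrane, rose from 233 ± 1.22 to 459 ± 1.98 CPM. Subunits of the proton pump rose as well, such as Atp6v1h from 48.5 ± 0.809 to 85.9 ± 1.73 CPM. Of 47 proteasome genes 31 rose and 2 fell (median 0.21), and without wild-type replicate 1, 1 fell. Heat shock and unfolded protein genes rose in 17 of 26 cases and fell in 2. The small heat shock protein Hspb1 rose from 15.9 ± 1.22 to 70.3 ± 5.34 CPM, the chaperone Hspa5 of the endoplasmic reticulum from 772 ± 16.8 to 988 ± 18.6 CPM, and the abundant Hsp90ab1 fell from 2912 ± 82.5 to 2305 ± 19.4 CPM. Cholesterol synthesis was split, with 10 higher and 11 lower of 26.

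**Figure D5:**
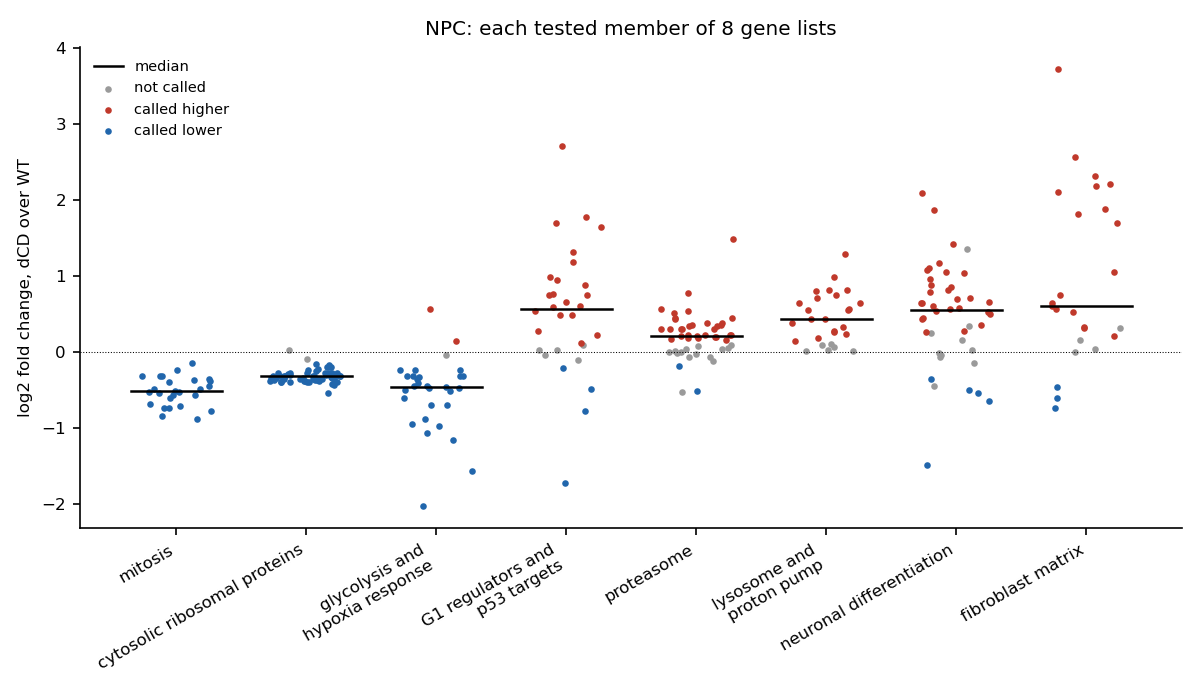
Log2 fold change of dCD against wild type in NPC for each tested member of 8 lists, 1 point per gene, red if called higher, blue if called lower and grey if not called, with a line at each list's median. Besides mitosis, ribosomal proteins, glycolysis, G1 and p53, lysosome and proteasome, the lists of neuronal differentiation and fibroblast matrix are shown. The mitosis and ribosomal protein genes lie almost wholly below 0 and the lysosome genes at or above it.

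Chromatin regulators moved in both directions. Subunits shared by or specific to the H3K4 methyltransferase complexes rose in 4 (28.57%) and fell in 6 (42.86%) of 14 cases. Of all genes tested, 26.7% rose and 26.8% fell. None of these subunits changed by 2-fold, and 2 rose without wild-type replicate 3 or dCD replicate 2. Kdm6a, the demethylase of the MLL3 and MLL4 complexes, had 106, 106 and 108 CPM in the wild-type libraries and 88.5, 96.2 and 92.1 CPM in the dCD libraries (log2 change -0.21 ± 0.040). Rbbp5, a core subunit, fell from 82.7 ± 2.35 to 68.5 ± 2.39 CPM, and Ash2l, also a core subunit, rose from 196 ± 4.44 to 230.2 ± 5.56 CPM. Ncoa6, a coactivator within the MLL3 and MLL4 complexes, rose from 178 ± 6.69 to 192 ± 4.03 CPM, and lost its call without wild-type replicate 1 or 3 or dCD replicate 2 (adjusted p between 0.0535 and 0.15). Of 12 genes of Polycomb repressive complex 2, 5 fell (41.67%) and 1 rose (8.333%). Those that fell were led by the methyltransferases Ezh1 (53.2 to 27.4 CPM) and Ezh2 (194 to 137 CPM). The coactivator and remodeller list had 8 of 19 lower and 3 higher. The remodeller Chd7 fell from 159 ± 4.17 to 122 ± 2.87 CPM and the cohesin subunits Smc1a and Rad21 from 337 ± 4.3 to 260.0 ± 9.16 CPM and from 482 ± 4.58 to 379 ± 8.22 CPM, while the remodelling ATPase Smarca2 rose from 69.1 ± 0.902 to 133 ± 2.3 CPM. The acetyltransferases Ep300 and Crebbp were at 255 and 256 CPM and at 145 and 131 CPM and did not pass the test. Genes of DNA methylation fell in 5 of 9 cases, with Tet1 and Tet2 falling from 97 ± 1.86 to 78.9 ± 2.3 CPM and from 173 ± 2.5 to 137 ± 4.63 CPM. Among 380 zinc finger genes named Zfp, 200 fell and 48 rose (median -0.20), and 4 fell and 8 rose by 2-fold or more.

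Some genes of the early embryo and germ line rose in dCD from low levels. Of 29 germ line genes 14 rose and 5 fell (median 0.77). Taf7l, a testis form of a TFIID subunit, had 3.99, 4.45 and 4.36 CPM in the wild-type libraries and 14.8, 14.8 and 14.2 CPM in the dCD libraries. Slc25a31, a testis ADP/ATP carrier, rose from 3.25 ± 0.512 to 10.7 ± 0.474 CPM, the helicase Ddx4 from 14.1 ± 0.919 to 24.9 ± 0.635 CPM and the RNA-binding protein Dazl from 2.5 ± 0.0235 to 6.06 ± 0.33 CPM. Dppa2, an early embryo gene whose neighbours Dppa4 and Morc1 rose at least 2-fold as well, had 0.696, 0.746 and 1.06 CPM in the wild-type libraries and 9.48, 9.93 and 9.71 CPM in the dCD libraries. The genotypes were far apart for it. Tdgf1, the co-receptor Cripto, rose from 1.51 ± 0.241 to 5.85 ± 0.586 CPM. The naive pluripotency list as a whole had 6 of 20 higher (30%, against 26.7% of all genes tested) and 4 lower (20%, against 26.8%). Without wild-type replicate 1, 2 of its genes fell. The core factors Pou5f1, Nanog and Esrrb did not pass the test. Tdrd1, a piRNA pathway protein, fell from 5.93 ± 0.524 to 3.12 ± 0.5 CPM. Of 18 genes of the early cleavage embryo, 5 rose (27.78%), which is near the 26.7% of all genes tested. All 5 reached levels of 1.35 CPM or less, and 2 rose without wild-type replicate 1.

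Imprinted genes, expressed from the allele of 1 parent, were split with 16 lower (37.21%) and 13 higher (30.23%) of 43 (median -0.023). Of all genes tested, 26.8% fell and 26.7% rose. Beside Grb10 and Zim1, the abundant members Peg3, Peg10 and H19 fell. Peg3, a zinc finger gene next to Zim1, had 4759, 4573 and 4585 CPM in the wild-type libraries and 3325, 3313 and 3244 CPM in the dCD libraries. H19, a long non-coding RNA, fell from 2672 ± 48.7 to 1554 ± 17.3 CPM and Peg10 from 2824 ± 54.9 to 1634 ± 25.1 CPM. Impact rose from 203 ± 4.46 to 393 ± 8.52 CPM. Meg3, Plagl1 and Cdkn1c were at 699.8 and 735 CPM, at 649.7 and 676 CPM and at 89.3 and 94.9 CPM and did not pass the test.

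The change in dCD NPC was compared with the change in dCD ESC of the same lines by an interaction term, which is the NPC change minus the ESC change. This differed for 8807 genes, 42.9% of those tested. In ESC, 9909 genes (48.3%) were called, with 25.7% of all genes tested higher and 22.6% lower. Of the 1442 genes at least 2-fold higher in NPC, 558 (38.7%) were also called higher in ESC, 139 (9.64%) were called lower and 745 (51.7%) were not called. Of the 997 at least 2-fold lower, 384 (38.5%) were lower in ESC too, 87 (8.73%) were higher and 526 (52.8%) were not called. The interaction was called for 831 (57.6%) of the genes at least 2-fold higher and 478 (47.9%) of those at least 2-fold lower. A gene not called in ESC thus need not differ between the stages. These shares come from different libraries at each stage but from the same lines.

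Of the 24 genes changed most in NPC, 23 had a change that differed between the stages, 12 were called in the same direction in ESC and 3 in the opposite one. They were chosen for a large NPC change, which is part of the interaction, so the count of 23 is a description only. Over all genes tested, 42.9% passed the interaction test. Bnc1 rose in dCD ESC, from 0.102 to 0.297 CPM (1.499 ± 0.53), and fell in dCD NPC, an interaction of -4.02 ± 0.54 (adjusted p = 1.14e-07). Its wild-type ESC level was near the floor of 3 counts, 0.09945 to 0.1596 CPM in those libraries, so its ESC change is poorly set. Rassf9 also rose in ESC and fell in NPC, with 0.754 to 1.31 CPM in ESC and an interaction of -3.35 ± 0.30. Cnn1 fell in ESC, from 7.81 to 5.05 CPM, and rose in NPC. Grb10 fell at both stages, in ESC from 99.5 to 51.8 CPM (-0.95 ± 0.050), and by more in NPC (interaction -4.30 ± 0.079, adjusted p = 2.16e-30). Acta2 rose at both, in ESC from 15.4 to 58.5 CPM (1.92 ± 0.063). Cntnap5b was listed with 0 counts in ESC, so no comparison between stages is given for it.

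The same genes in MLL2dTAG NPC, which share the wild-type libraries with this comparison, are given as levels only. Bmp3 averaged 0.388 ± 0.0869 CPM there, Ptgs2 1.08 ± 0.101 CPM, Cnn1 16.8 ± 0.469 CPM and Acta2 219 ± 4.84 CPM. Of the 12 genes that rose most, Cnn1 and Acta2 lay between their wild-type and dCD levels. So did Mgat4c (2.5 CPM), Serpinb9b (8.22 CPM), Actg2 (7.15 CPM), Anxa1 (34.7 CPM), Nov (1.32 CPM), Tbx20 (4.83 CPM) and Cntnap5b (5.97 CPM). Bmp3, Ptgs2 and Egfl6 (2.01 CPM) were below their wild-type means. Bnc1 averaged 93.7 ± 2.09 CPM, Emx2 5.33 ± 0.612 CPM and Rspo1 3.38 ± 0.19 CPM. Of the 12 genes that fell most, Emx2, E330013P04Rik (0.903 CPM), Asb4 (0.761 CPM), Atp2a3 (2.225 CPM) and Kcna5 (2.18 CPM) were below their dCD means. Bnc1, Rspo1, Rassf9 (2.34 CPM), Ecel1 (16 CPM), Nxph3 (5.78 CPM) and Grb10 lay between their wild-type and dCD means. Arhgap22, at 13.1 CPM, was above its wild-type mean. Levels below wild type for several of the lower genes, and above it for several of the higher genes, were thus not particular to dCD.

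Few genes were close to silent in only 1 genotype. With no more than 3 counts over the libraries of 1 genotype and at least 1 CPM in the other, 3 genes were near silent in wild type and 1 in dCD. Neurod2, a factor of maturing neurons, had 0 counts in wild type and 110 in dCD. The uncharacterised A630033H20Rik had 0 and 122 counts, and AL513022.1 had 3 and 140. Apol7c, an apolipoprotein L gene, had 132 counts in wild type and 0 in dCD, and was also at 0 in dCD ESC against 0.599 CPM in wild-type ESC. Apol7c was thus without a count in dCD at both stages.

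Some genes that changed at least 2-fold were neighbours, in runs of 3 or more in gene order. The longest run of lower genes had 7 members on chromosome 7 and included Tm6sf1, Bnc1 and Sh3gl3, with a median change of -2.173. A run of 6 lower genes on chromosome 3 included Txnip, an inhibitor of thioredoxin, which fell from 235 ± 1.63 to 92.1 ± 3.12 CPM. The longest run of higher genes had 6 members on chromosome 4, from Tnfsf15 through Tnc to Pappa and Astn2, with a median change of 1.445. Pappa, a protease of IGF-binding proteins, rose from 4.28 ± 0.58 to 10.01 ± 0.366 CPM. Runs of 5 higher genes lay on chromosome 11, with the Schlafen genes Slfn2 and Slfn3, and on chromosome 3, with Ndst4 and Camk2d. Antisense and overlapping transcripts in these runs may share reads with their neighbours.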

How the data were processed

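The values deposited by the authors are unnormalized read counts for each gene symbol, from libraries made with the TruSeq Stranded mRNA kit per the labels' protocols. HTSeq is named in the submitters' processing notes, while aligner, genome build and use of strand are not given in the sources used here. Columns were matched to samples by name, and 18 columns of samples were not used here.

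Counts of all 18 matched libraries (wild type, dCD and MLL2dTAG, each as ESC and NPC, 3 replicates) entered a model in edgeR 4.0.16 (limma 3.58.1, R 4.3.3): filterByExpr by group, TMM, 1 mean per group, 12 residual degrees of freedom, a common dispersion of 0.00161, glmQLFit and glmQLFTest. This left 20511 of 51734 symbols. Only tests of dCD against wild type and their interaction with stage are reported. The SE is the size of the log2 change over the square root of F. On simulated data (20105 genes), 200 genes with a mean above 1 CPM were changed in the dCD NPC libraries. There, 42 of 50 genes changed 1.5-fold and 47 of 50 changed 2-fold were called, with 8 of 19905 unchanged genes. Far fewer genes were changed there than were called in the data, and none at low levels, so these rates need not hold for the data.

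Genes were named by a rule: the targeted methyltransferases; the 12 highest and 12 lowest changes where the mean reached 5 CPM and groups did not overlap; the 5 highest and 5 lowest with at least 100 CPM; up to 2 examples per list and direction with at least 2 CPM; near-silent genes; and runs of at least 3 neighbours in GENCODE M21 order. Members and lists were chosen with earlier results of these data known, and other list members named were chosen after their values were seen. Alternatives covered size factors, filters, DESeq2 1.42.0, the groups fitted, halved counts, GC and length offsets, a replicate block and leaving out libraries. Reads are not independent molecules, so floors cover counting error only. Promoter sequences are RefSeq's.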

Additional observations from a re-analysis of the deposited data

Results flagged for a closer look

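Among the 24 genes changed most in NPC, 23 stood out because the change of dCD against wild type differed between NPC and ESC by the interaction test (edgeR, adjusted p under 0.05). The values are the NPC change minus the ESC change, on the log2 scale, with SE. Over all genes, 42.9% passed the same test. These genes were chosen for a large change in NPC, which is part of the interaction, so their number is a description only.

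Of the genes higher in dCD NPC, the interaction was 8.23 ± 2.24 for Bmp3, which was close to 0 in ESC of both genotypes, so that its size is poorly set. It was 4.92 ± 0.14 for Cnn1, 4.62 ± 0.13 for Ptgs2 and 4.53 ± 0.83 for Mgat4c. It was 3.09 ± 0.26 for Serpinb9b, 3.02 ± 0.30 for Tbx20, 2.93 ± 0.075 for Anxa1 and 2.90 ± 0.33 for Egfl6. Actg2 had 2.16 ± 0.36, Acta2 had 1.82 ± 0.083 and Nov had 1.75 ± 0.29. Mgat4c was near the floor of 3 counts in ESC, at 0.112 CPM in wild type and 0.193 CPM in dCD, so its value is poorly set as well.

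Of the genes lower in dCD NPC, the interaction was -4.30 ± 0.079 for Grb10 and -3.35 ± 0.30 for Rassf9. It was -4.02 ± 0.54 for Bnc1, which was near the floor of 3 counts in wild-type ESC. It was -2.78 ± 0.56 for Kcna5, -2.52 ± 0.31 for Asb4, -2.48 ± 0.35 for Emx2 and -2.38 ± 0.67 for E330013P04Rik. It was -2.30 ± 0.23 for Nxph3, -1.89 ± 0.21 for Rspo1, -1.78 ± 0.12 for Atp2a3, -1.63 ± 0.21 for Arhgap22 and -1.18 ± 0.26 for Ecel1. E330013P04Rik was near the floor of 3 counts in ESC, at 0.189 CPM in wild type and 0.137 CPM in dCD, so its value is poorly set.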

How the results depend on the processing

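With RLE size factors, no filter, DESeq2, the compared groups alone, halved counts or GC and length offsets, the numbers of called, higher, lower and 2-fold genes and of interactions stayed within 1.5 times the values given. Leaving out 1 library at a time gave 10194 to 10332 called genes, 5089 to 5221 higher, 5050 to 5218 lower, 1371 to 1399 at least 2-fold higher, 948 to 981 at least 2-fold lower and 8274 to 8701 interactions. With genes of a mean of at least 1 CPM only, fewer genes were tested, and 915 rose and 578 fell at least 2-fold. Asking for 2-fold as well as the adjusted p left 2439 genes called and 2273 interactions. No gene value named changed direction where the gene was called in the main fit or in the alternative. A change of sign in genes called in neither was not counted. Of 6308 values over 422 genes, 6236 kept their side of the threshold, 44 lost the call and 28 gained it. Of 2490 counts of list members under the alternatives, 74 moved by more than 1.5 times, mostly counts under 5.

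The replicate numbers gave no sign of pairing wild-type with dCD libraries (correlations of deviations of -0.098, -0.055 and 0.007 over 11805 genes), and a fit with the replicate number as a block called 10771 genes. Depth limits genes near the floor of 3 counts, where folds are not given for a genotype at 0. Genes that share sequence or overlap, such as actins and protocadherins, may share reads.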

Other observations

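Further families and lists are given beside the background of 26.7% of all genes higher and 26.8% lower, and none was tested as a set. T-box factors rose in 6 and fell in 4 of 13 cases, and Tbx20 and Tbx15 rose while Tbx5 and Tbx2 fell (135 to 92.3 CPM for Tbx2). Of 6 GATA factors 3 fell, and Gata2, which is known for blood and the urogenital tract, went from 387 ± 16.9 to 143 ± 5.83 CPM. Gata3 rose from 20.9 ± 1.78 to 55.4 ± 3.66 CPM. Integrins, the receptors of the matrix, rose in 11 and fell in 7 of 24 cases, with Itga8 falling from 34.5 ± 1.79 to 20.7 ± 0.339 CPM and the laminin receptor Itga7 rising from 0.67 ± 0.267 to 4.05 ± 0.525 CPM. Genes of chemokine and interferon signalling and antigen presentation rose in 14 and fell in 5 of 33 cases, a share called of 57.6% against 53.5% of all genes, among them B2m, the light chain of MHC class I, from 58 ± 1.58 to 109 ± 4.68 CPM. The MHC heavy chain H2-K1 fell from 45.9 ± 1.53 to 35.2 ± 1.39 CPM.

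Markers of trophoblast summed to 2836 to 2946 CPM in wild type and 1643 to 1691 CPM in dCD, most of it Peg10, an imprinted gene that fell as given above. Neural crest markers summed to 315.3 to 328.0 CPM and 432.0 to 439.8 CPM, with 5 of 17 higher and 4 lower. Ednrb, the endothelin receptor of crest cells, rose from 22.5 ± 0.996 to 79.3 ± 4.03 CPM, and the receptor Ret of enteric crest fell from 10.4 ± 0.44 to 3.01 ± 0.594 CPM.

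Of 504 genes tested on chromosome 18, 43.1% rose and 19.8% fell in NPC, against 26.7% and 26.8% of all genes, and the median change was 0.16. In ESC, 40.1% rose and 14.5% fell, with a median of 0.19. The chromosome took 2.46% to 2.47% of the CPM in wild-type NPC and 2.67% to 2.74% in dCD NPC. On chromosome 17, 21.9% rose and 31.7% fell in NPC. The cause was not tested.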
